A study of Populus ussuriensis with 18 samples.

Results

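The genes described here were lower in roots of Populus ussuriensis after 12 h of low nitrogen (LN) and near or above their control level at every later time. They were chosen by their FPKM, the fragments counted on a gene scaled by its length and by the total of the library. For each gene the mean of log2(FPKM + 1) over the 3 libraries of a time was set against that of the control, and the difference is written d. The members are the 43 of 30485 genes with a d of -1 or less at 12 h and a d above -0.5 at each of 24, 48, 96 and 336 h. Every difference from the control was thus used to choose them and is given as a description only.

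All 18 libraries came from roots of wild-type plantlets, propagated clonally in vitro and rooted for 3 weeks on the same agar medium. Each group had 3 libraries. The control, at 0 h, was taken from medium with 10 mM nitrate and 5 mM ammonium. The LN groups followed transfer to medium with 0.05 mM nitrate and 0.025 mM ammonium, by 12, 24, 48, 96 or 336 h. The study describes the medium after transfer as liquid, so in comparisons with the control the transfer and the low nitrogen cannot be told apart. The labels name the replicates but not the plants in each, so p-values measure the spread between these libraries. Each time has a batch label of its own, so batch and time cannot be told apart. The plantlets grew under 16 h of light and 8 h of dark, and the sources used here give no hour of sampling. Of all LN times, 12 h alone is not a whole number of 24 h days after the control, so in every comparison with 12 h the time of day and the time on LN cannot be told apart. Roots kept on control medium for the same hours were not analysed here. In these bulk libraries, fewer cells of a type and less RNA per cell cannot be told apart either.

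As background, the plant circadian clock is a loop of transcription factors whose levels rise and fall with the day. In Arabidopsis, LHY is a MYB-related repressor that peaks near dawn, while GIGANTEA and LUX belong to the evening part of the loop. Auxin, which shapes root growth, enters cells through AUX/LAX influx carriers, and Aux/IAA proteins repress the genes it controls. The NPF family moves nitrate, peptides and hormones across membranes, and class III peroxidases are secreted enzymes that work in the cell wall. Descriptions were taken from the study's supplementary tables of selected genes, which name 1147 genes of the files, and only 7 of the 43 members are among them. These 7 are 2 genes for LHY, 1 Aux/IAA gene, 1 auxin influx carrier, 1 NPF transporter, 1 class III peroxidase and 1 MYB transcription factor. The study annotated most genes, but for the other 36 members no description was used here and only their P. trichocarpa identifiers are given.

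Facts of the whole series bear on the members as follows. The libraries held 15945075 to 18193661 fragments on genes, with a median of 17401559. Replicates of a group correlated at 0.993 to 0.996 over all genes, except that replicate 3 of 48 h correlated at only 0.939 with both others of its group. The main results that use 48 h are therefore given with and without that library. The 5 genes described as SCARECROW, SHORT-ROOT or SOMBRERO, which mark root cell layers and the root cap, were above 0 in every library, and their summed level was 19.7 to 20.3 FPKM in the control and 8.89 to 10.99 FPKM at 12 h. The 3 genes for chlorophyll-binding and photosystem II proteins, which mark green tissue, summed to 330.3 to 348 FPKM in the control and to 132 to 143 FPKM at 12 h. The largest part of the root sum was SCARECROW Potri.006G114200, with a mean of 10.2 FPKM in the control and 3.83 FPKM at 12 h. SHORT-ROOT went from 6.07 to 3.70 FPKM. The SCARECROW genes Potri.016G143900 and Potri.T138100 went from 1.64 to 0.435 and from 0.521 to 0.131 FPKM. SOMBRERO, the root cap marker, had 1.66 and 1.76 FPKM. The part of these markers in the members' values was not tested.

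Of all genes, 603 had a d of -1 or less at 12 h, and most of them were also lower later. Among the 603, d was -0.5 or less for 488, 472, 388 and 401 genes at the 4 later times in order. At all 4 later times 252 genes were this low, at none of them the 43 members, and 50 genes missed membership at a single time. With the limits mirrored, 71 genes were raised at 12 h only. Near the 12 h limit, Potri.001G345300 (-1.004), Potri.010G082600 (-1.002) and Potri.018G121600 (-1.001) were just inside, and Potri.008G011100 (-0.9997), Potri.014G180100 (-0.9963) and Potri.001G036700 (-0.9888) just outside. At 24 h, Potri.001G345300 (-0.4996), Potri.014G090800 (-0.4936) and Potri.008G081000 (-0.4671) were just inside, and Potri.015G057000 (-0.5423), Potri.016G075400 (-0.5931) and Potri.013G120600 (-0.60) just outside. At 48 h, Potri.001G071500 (-0.4719), Potri.014G090800 (-0.4604) and Potri.016G132200 (-0.3771) were inside, and Potri.006G114200 (-0.6828), Potri.007G122100 (-0.7002) and Potri.002G149300 (-0.7332) outside. At 96 h, Potri.010G232700 (-0.4122), Potri.001G071500 (-0.3438) and Potri.001G018300 (-0.2707) were inside, and only Potri.018G055400 (-0.7678) failed at that time alone. At 336 h, Potri.001G018300 (-0.4667), Potri.001G071500 (-0.3362) and Potri.008G046200 (-0.3142) were inside, and Potri.015G029400 (-0.5627), Potri.005G196700 (-0.6872), a copy of GIGANTEA, and Potri.014G056600 (-0.8663) outside. The length of the list depends on the scale and the limits: with a pseudocount of 0.1 in place of 1 the same rule took 134 genes, 37 of them members, and with the pseudocount of 1 it took 21 genes at a later limit of -0.25 and 73 at -0.75.

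**Figure D1:**
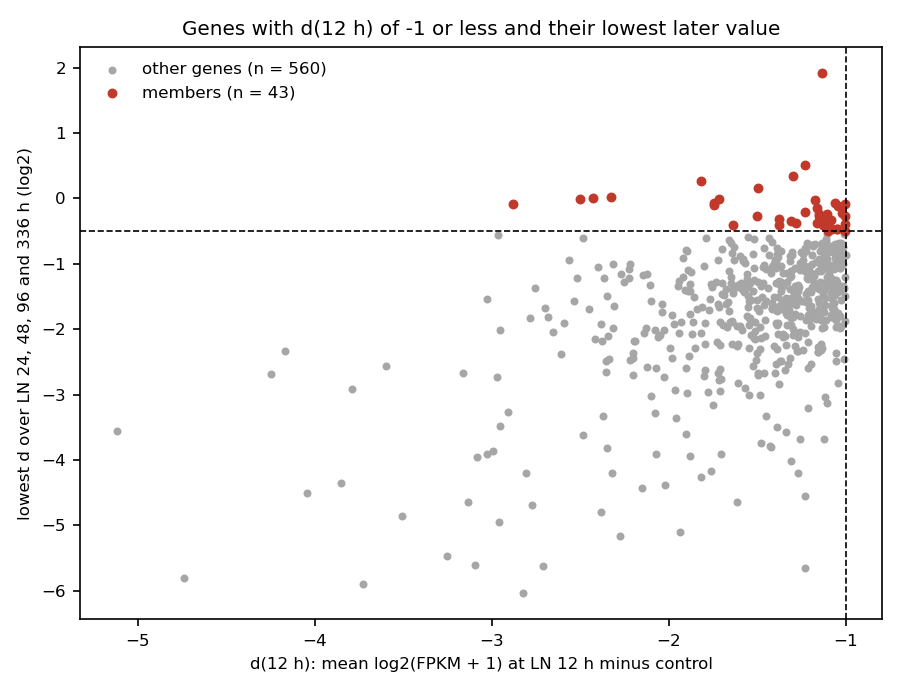
Each point is 1 of the 603 genes with a d of -1 or less at 12 h. The x axis is d at 12 h and the y axis the lowest d over the 4 later LN times, both on the log2(FPKM + 1) scale, and dashed lines mark the limits of -1 and -0.5. The 43 members (red) lie above the horizontal line, between -2.88 and -1.001 on the x axis, while the other 560 genes (grey) lie below it.

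In the control the members' mean levels ran from 1.42 to 1124 FPKM, with a median of 10.1. At 12 h they ran from 0.172 to 560 FPKM, with a median of 2.57. A member kept 6.76% to 49.8% of its control level at 12 h, with a median of 32.2%. All 43 members were called lower at 12 h by limma, at an adjusted p under 0.05 and a log2 fold change of -1 or less, where 2.62% of 22977 genes tested were called lower, and the rule fixed this result. In 43 of 43 members every 12 h library was below every control library, as in 22.7% of genes tested, and in 39 every 12 h library was below all 15 other libraries, as in 4.29%. These values chose the members, so nothing is read from the counts. The 4 exceptions, named after their values were seen, are Potri.014G123500, Potri.019G093300, Potri.014G090800 and Potri.013G057500, and in each of them only replicate 3 of 48 h reached down to the 12 h libraries. With that library set aside, the 12 h libraries were the lowest in all 43 members.

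Since the rule used the means of 3 libraries, it was also run on 2 replicates of every group, and the replicate left out was then read. The numbers of genes chosen were 42, 44 and 43 without replicates 1, 2 and 3. In the replicate left out, the 12 h library was below the control library in 41 of 42, 44 of 44 and 43 of 43 of these genes. It was lower by 1 or more on the log2 scale in 31, 27 and 34 of them, compared with 2.33%, 2.19% and 2.23% of all genes in the same replicates. The median difference in the left-out replicate was -1.21, -1.11 and -1.24. The later limits also held in that replicate for 37 of 42 and 38 of 44 genes when replicate 1 or 2 was left out, but for only 24 of 43 when replicate 3 was. At 48 h alone, 25 of these 43 genes kept above the limit in replicate 3. For the counts below the control and above the later limits, the shares of all genes were not computed. Left-out and choosing libraries had the same times and batch labels.

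**Figure D2:**
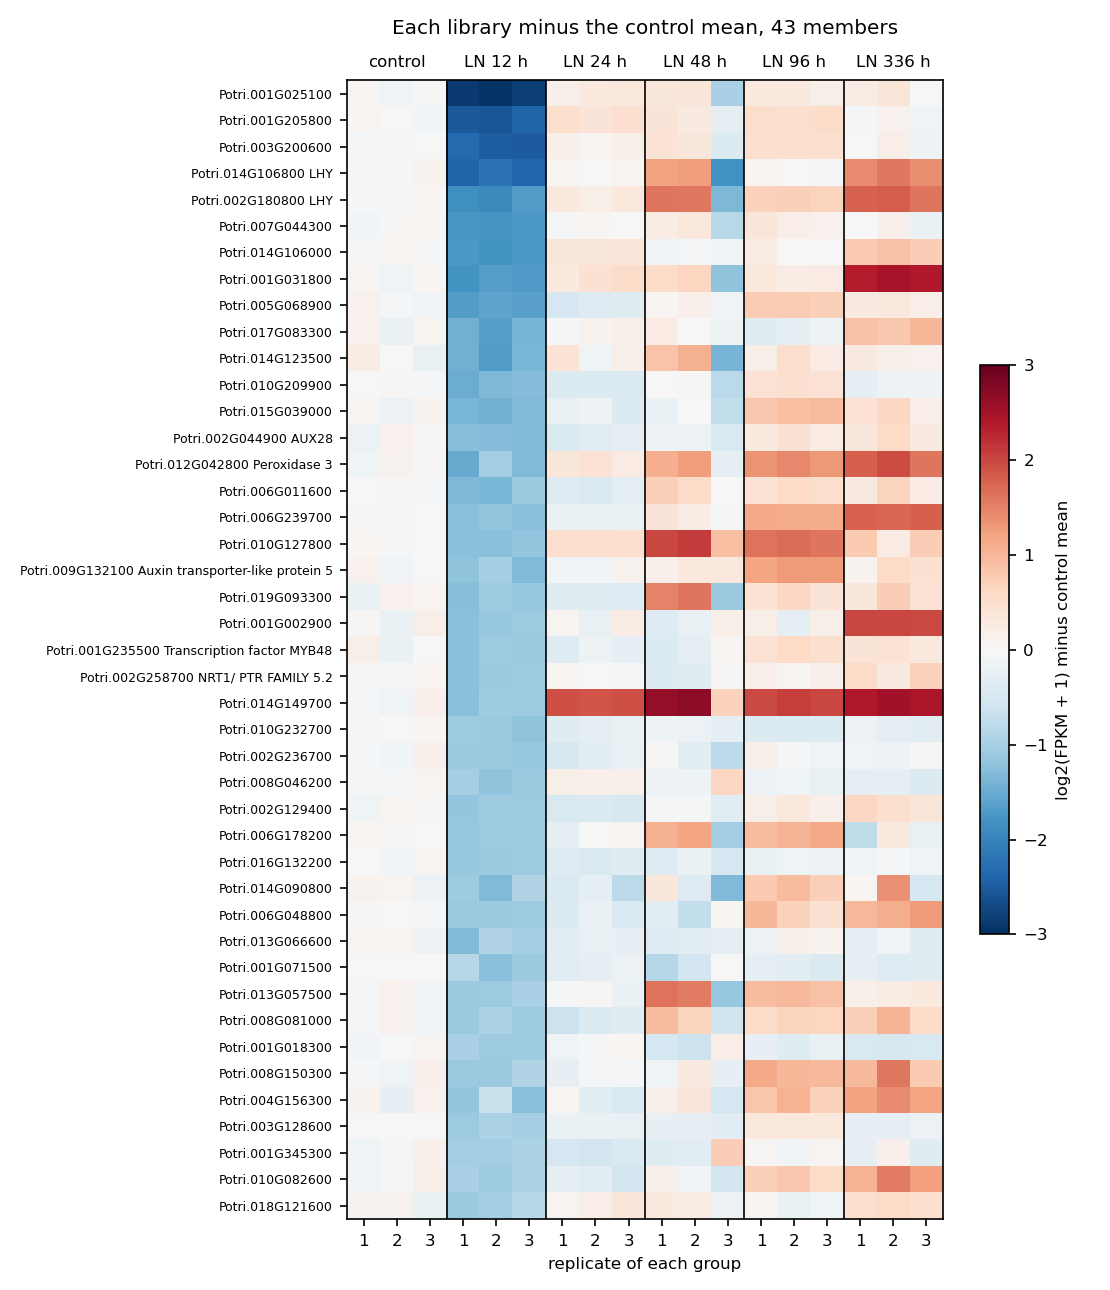
Rows are the 43 members, ordered by d at 12 h, and columns are the 18 libraries by group. Colour is log2(FPKM + 1) in a library minus the control mean, blue for lower and red for higher. The 3 libraries of 12 h are blue throughout, and replicate 3 of 48 h is bluer than its group in 33 of 43 rows.

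The 2 LHY genes had the largest difference at 12 h of all described members. Potri.014G106800 had 17.7, 17.4 and 19.8 FPKM in the control libraries and 2.66, 3.14 and 2.70 FPKM at 12 h, a level 6.44-fold lower by the means. It was back at 19.1, 18.4 and 19.3 FPKM at 24 h and had 19.3, 18.3 and 17.7 FPKM at 96 h. Its control, 24 h and 96 h libraries overlapped, while those of 12 h lay far below.

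Potri.002G180800, the other LHY copy, had 14.1, 14.1 and 15.04 FPKM in the control and 3.3, 3.05 and 3.803 FPKM at 12 h, which is 4.26-fold lower. At 24 h it had 17.9, 16.4 and 18.3 FPKM and at 96 h 23.7, 24.2 and 23.6 FPKM. Unlike its partner, this copy was above all its control libraries at both times.

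At 336 h both copies were at their highest means. Potri.014G106800 reached 50.5, 56.7 and 49.1 FPKM and Potri.002G180800 51.6, 52.9 and 45.5 FPKM. Against 24 h they were higher by 1.41 (SE 0.0717) and 1.46 (SE 0.0793) on the log2 scale. At 48 h the replicates of the copies disagreed: Potri.014G106800 had 43.7 and 44.9 FPKM in replicates 1 and 2 and 4.44 FPKM in replicate 3, and Potri.002G180800 had 46.1, 45.3 and 5.02 FPKM. Replicate 3 thus lay close to the 12 h level and the other replicates close to the 336 h level. The 48 h means of these genes describe no library.

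**Figure D3:**
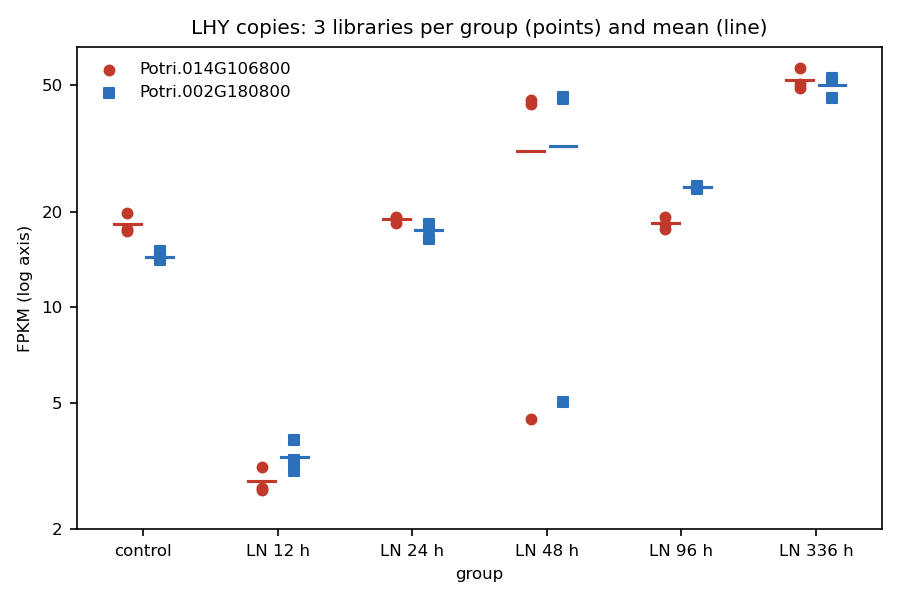
FPKM (log axis) of the 2 LHY copies in each library by group, with points for libraries and a line for the mean of 3. Both copies were lowest at 12 h, at 2.66 to 3.803 FPKM, and split at 48 h between 43.7 to 46.1 FPKM in replicates 1 and 2 and 4.44 to 5.02 FPKM in replicate 3.

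The clock and light genes of the study's tables, 13 in all, were listed by description. Earlier results were known when the list was made, and the tables hold genes the study called on these samples. At 12 h against the control, 5 of the 12 tested were called lower and none higher, where 2.62% and 6.21% of all genes tested were, with a median log2 fold change of -0.29 beside 0.15 over all genes tested. Of the 5, both LHY copies were fixed by the rule, and the 3 that are not members are the 2 GIGANTEA copies and LUX. GIGANTEA Potri.002G064400 had a mean of 31.5 FPKM in the control and 13.9 FPKM at 12 h. The other copy, Potri.005G196700, went from 21.2 to 9.14 FPKM, and LUX (Potri.006G034900) from 47.5 to 23.0 FPKM. These 3 failed the rule because they were lower again at 336 h, or, for LUX, at every later time. At 336 h against 24 h, 5 of 11 tested clock and light genes, both LHY copies included, were called higher and none lower. Of all 23484 genes tested, 4.42% were called higher. The median log2 fold change was 0.45 over the list and 0.11 over all genes tested. The means of the GIGANTEA copies fell between these times, from 27.1 to 16.4 FPKM for Potri.002G064400 and from 20.3 to 12.8 FPKM for Potri.005G196700. The third 48 h library did not move these genes one way. GIGANTEA Potri.005G196700 had 11.5, 11.2 and 34.6 FPKM in the 48 h replicates, the highest where LHY was lowest. The other GIGANTEA copy, Potri.002G064400, had 38.45, 37 and 35.7 FPKM and LUX 29.3, 26.7 and 31.4 FPKM, with little difference between replicates. REVEILLE 8 Potri.016G083900, for a MYB-related protein akin to LHY, had 9.23, 9.45 and 1.77 FPKM.

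Members linked to auxin were an Aux/IAA gene and an influx carrier. Potri.002G044900, described as AUX28, had 13.7, 17.3 and 16.2 FPKM in the control and 5.83, 5.75 and 5.62 FPKM at 12 h. It returned to 11.3, 12.2 and 12.9 FPKM at 24 h, still under its control libraries, and had 19.4, 22.04 and 18.8 FPKM at 96 h. Its log2 fold change from 24 h to 96 h was 0.68 (SE 0.0751), short of the fold limit of 1. Another gene described as AUX28, Potri.005G218300, had a d of -0.079 at 12 h.

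Potri.009G132100, described as auxin transporter-like protein 5, had 3.85, 3.14 and 3.41 FPKM in the control and 0.938, 1.24 and 0.786 FPKM at 12 h. It had 3.22, 3.19 and 3.77 FPKM at 24 h, in the range of the control. At 96 h it had 9.12, 9.72 and 9.82 FPKM, above every other library of the series and 1.27 over 24 h on the log2 scale (SE 0.0660). At 336 h it was at 3.83, 5.78 and 5.09 FPKM. Another gene of the same description, Potri.004G172800, had a d of -0.247 at 12 h and 1.151 at 96 h.

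Of 19 auxin response genes described in the study's tables, which hold genes called on these samples, 3 of 16 tested were called lower and 1 higher at 12 h, and of the 8 auxin transport genes 1 of 7 was lower and 1 higher. The lower ones besides the members were auxin response factor 9 (Potri.001G088600) and IAA14 (Potri.008G161200), with a d of -0.99 and -1.04 at 24 h. The lists' medians at 12 h were -0.23 and -0.15, beside 0.15 over all genes tested, of which 2.62% were called lower and 6.21% higher.

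The NPF and peroxidase families had 1 described member each. Potri.002G258700, described as NPF5.2, known in Arabidopsis also as the peptide transporter PTR3, had 14.9, 14.9 and 16.0 FPKM in the control and 5.84, 6.54 and 6.62 FPKM at 12 h. It was back at 15.9, 15.5 and 14.7 FPKM at 24 h, and its log2 fold changes from 24 h were 0.13 at 96 h (SE 0.0523) and 0.50 at 336 h (SE 0.108). Another gene described as NPF5.2, Potri.010G068100, had a d of -0.698 at 12 h and -2.796 at 336 h. Of the 32 NPF genes in the tables, 23 were tested at 12 h, where 2.62% of all genes tested were called lower and 6.21% higher. Of these 23, 6 were called lower and 4 higher, with a median of -0.45 beside 0.15 over all genes tested. The other 5 lower ones, among them 3 genes for the nitrate transporter NPF7.3, had a d of -0.5 or less at 24 h too.

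Potri.012G042800, described as peroxidase 3, had 4.36, 5.32 and 4.97 FPKM in the control and 1.04, 1.86 and 1.33 FPKM at 12 h. From 24 h on its mean climbed, from 6.42 FPKM through 9.38 at 48 h and 14.2 at 96 h to 19.3 FPKM at 336 h. The log2 fold change from 24 h was 1.03 at 96 h (SE 0.0664) and 1.45 at 336 h (SE 0.0967), and the former is under the fold limit, at 0.98, after quantile normalization. At 48 h it had 11.5, 12.9 and 3.78 FPKM. Other genes described as peroxidase 3, Potri.007G122100, Potri.017G037900 and Potri.017G038100, had a d of -1.051, 0.245 and -0.211 at 12 h. Of the 51 peroxidase genes in the tables, 11 of 45 tested were called lower at 12 h and 15 higher, so that the list had no shared direction. Of all genes tested, 2.62% were called lower and 6.21% higher.

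The transcription factor MYB48, Potri.001G235500, is the only member with a position in the study's tables, on the minus strand of chromosome 1 from 24727904 to 24729402 in the P. trichocarpa genome. It belongs to the R2R3-MYB family and was the most abundant described member, at 84.1, 64.2 and 74.6 FPKM in the control and 30.2, 34.3 and 33.8 FPKM at 12 h. It had 56.4, 65.8 and 62.3 FPKM at 24 h and 101, 112 and 103 FPKM at 96 h. Against 24 h it was higher by 0.77 at 96 h (SE 0.0724) and by 0.64 at 336 h (SE 0.0765), under the fold limit at both times.

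The lowest d at 12 h of all members belonged to genes without a description. Potri.001G025100 had 13.4, 11.5 and 13.1 FPKM in the control and 0.857, 0.788 and 0.927 FPKM at 12 h, 14.8-fold lower, from 2741 fragments over the control libraries and 183 over those of 12 h. Its 24 h, 96 h and 336 h libraries all lay between 12.7 and 15.9 FPKM, or 16.5 FPKM for replicate 2 of 336 h. Potri.001G205800 and Potri.003G200600 followed, at 9.19-fold and 8.59-fold lower, with 1.32 and 1.36 FPKM at 12 h against 12.1 and 11.7 FPKM in the control. All 3 were thus strongly lower at 12 h and somewhat above the control at 24 h, with a d of 0.25, 0.47 and 0.13.

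Among the 12 members with the lowest d at 12 h and at least 5 FPKM in the control, the remaining 6 also had no description. Potri.007G044300 went from a mean of 6.62 to 1.28 FPKM and stood at 6.66 FPKM at 24 h. Potri.014G106000, whose identifier lies close to that of the LHY copy on chromosome 14, went from 12.7 to 3.08 FPKM and had 16.5 FPKM at 24 h. The mean of Potri.001G031800 was 5.17 FPKM in the control and 0.879 FPKM at 12 h, and that of Potri.017G083300 was 7.35 and 1.94 FPKM. At 24 h they had 7.32 and 7.75 FPKM. The more abundant Potri.005G068900 and Potri.010G209900 had 252 and 343 FPKM in the control and 80.2 and 132 FPKM at 12 h. These were still lower than the control at 24 h, with 188 and 257 FPKM and a d of -0.415 and -0.414. Together with LHY and AUX28, these 12 genes were 2.61-fold to 14.8-fold lower.

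After 24 h the members took different courses. In 16 of the 43, d stayed within 0.5 of the control at all 4 later times, among them Potri.001G025100, Potri.003G200600, Potri.007G044300 and AUX28. In 14, d reached 1 or more at 1 or more later times, and the rest of the members met neither limit. Without replicate 3 of 48 h these counts were 13 and 16. Over members the median d was -0.12, -0.01, 0.44 and 0.39 at the 4 later times in order, beside 0.05, 0.04, 0.11 and 0.16 over all genes. Without replicate 3 the median at 48 h was 0.10, and 8 members had a d of 1 or more at that time in place of 2. For these counts by d the shares of all genes were not computed. Compared with the control, 7 members were called higher at 96 h, where 8.18% of genes were, and 11 at 336 h, where 8.28% were. The rule allowed such rises and barred falls, so nothing is read from these counts.

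The later LN groups were also compared with 24 h. The rule used the values of all these groups, bounding each from below without fixing their order, so the counts and fold changes are a description. The 3 comparisons share the 24 h libraries. Falls were nearly barred, because only 2 members had a d above 0.5 at 24 h and could drop by 1 without leaving the rule. The counts of higher members are therefore given beside the shares of all genes and of the genes that also met the later limits.

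At 96 h, 13 of 43 members were called higher than at 24 h, under the same limits in the other direction. Of all 23479 genes tested, 3.87% were, and of those above -0.5 at all 4 later times 3.84%. The median log2 fold change of members was 0.51 beside 0.05 over all genes, and in 30 members every 96 h library was above every 24 h library, as in 35.9% of genes tested. The largest differences were those of Potri.006G239700, at 1.33 (SE 0.0428), of Potri.014G090800, at 1.31 (SE 0.137), and of the auxin transporter. Potri.006G239700 went from 170.3, 172 and 169 FPKM to 431, 427 and 430.4 FPKM. Potri.014G090800 was a low gene, with 1.27, 1.53 and 0.751 FPKM at 24 h and 4.26, 4.89 and 3.96 FPKM at 96 h, and only 12 fragments over the 12 h libraries. After quantile normalization 9 members were called, 8 of them among the 13.

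At 336 h, 11 of 43 members were called higher than at 24 h, where 4.42% of 23484 genes were and 4.02% of those that met the later limits. Their median log2 fold change was 0.50 beside 0.11 over all genes, and none was called lower. The largest differences were 1.98 for Potri.001G031800 (SE 0.0800), 1.97 for Potri.006G239700 (SE 0.0571) and 1.96 for Potri.001G002900 (SE 0.111). Potri.001G031800 had 6.53, 7.42 and 8.02 FPKM at 24 h and 30.8, 33.1 and 31.6 FPKM at 336 h. For Potri.001G002900 the values were 3.28, 2.44 and 3.71 FPKM and 15.1, 15.1 and 14.8 FPKM. Both of these, like Potri.014G106800 of the LHY copies, were near their 24 h level at 96 h, with log2 fold changes of -0.17, -0.01 and -0.04.

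The members called at 96 h and those called at 336 h shared 7 genes, which is 7 of 13 and 7 of 11. These 7 include peroxidase 3 and Potri.006G239700. The 6 called at 96 h alone include the auxin transporter and Potri.005G068900, and their median level was 4.88 FPKM at 24 h, 12.2 at 96 h and 5.35 at 336 h. The 4 called at 336 h alone were both LHY copies, Potri.001G031800 and Potri.001G002900, with medians of 12.4, 12.4 and 40.9 FPKM. No direct test of 336 h against 96 h was made. The summed root markers were at 16.4 to 17.1 FPKM in the 24 h libraries. They rose to 26.1 to 27.9 FPKM at 96 h and to 34.5 to 37.5 FPKM at 336 h. The median of the 7 genes called at both times was 1.52 FPKM at 24 h, 4.33 at 96 h and 6.06 FPKM at 336 h. These sets of members were sorted by the same comparisons with 24 h, so nothing is read from the course of their medians. From 96 h to 336 h the mean of SHORT-ROOT went from 8.49 to 15.1 FPKM and that of SOMBRERO from 5.68 to 7.37 FPKM. SCARECROW Potri.006G114200 had 11.2 and 10.97 FPKM. Those of green tissue summed to 236 to 239 FPKM at 24 h. They rose to 315.4 to 338.5 FPKM at 96 h and fell to 67.5 to 90.8 FPKM at 336 h. The part of either set of markers in the members' differences from 24 h was not tested. The remaining 26 members were not called at either time.

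The later levels were also read in replicates that had not chosen the genes, with the rule run on the other 2 replicates of each group as above. In the replicate left out, the 96 h library was 1 or more above the 24 h library, on the log2 scale, in 10 of 42, 14 of 44 and 10 of 43 genes without replicates 1, 2 and 3. Of the genes that met the later limits in the same 2 replicates, with at least 1 FPKM in 3 or more of those libraries, 3.95%, 4.06% and 4.08% were. At 336 h the numbers were 9, 14 and 6, compared with 4.01%, 4.09% and 3.95%. The medians in the left-out replicate were 0.38, 0.60 and 0.35 at 96 h and 0.49, 0.68 and 0.30 at 336 h, beside 0.05 to 0.17 over those other genes. The 3 readings share genes and are not independent of each other, and no test was made of them. The left-out libraries share the times and batch labels of those that chose the genes. The other genes were not matched to the members by their levels at 12 h or 24 h.

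**Figure D4:**
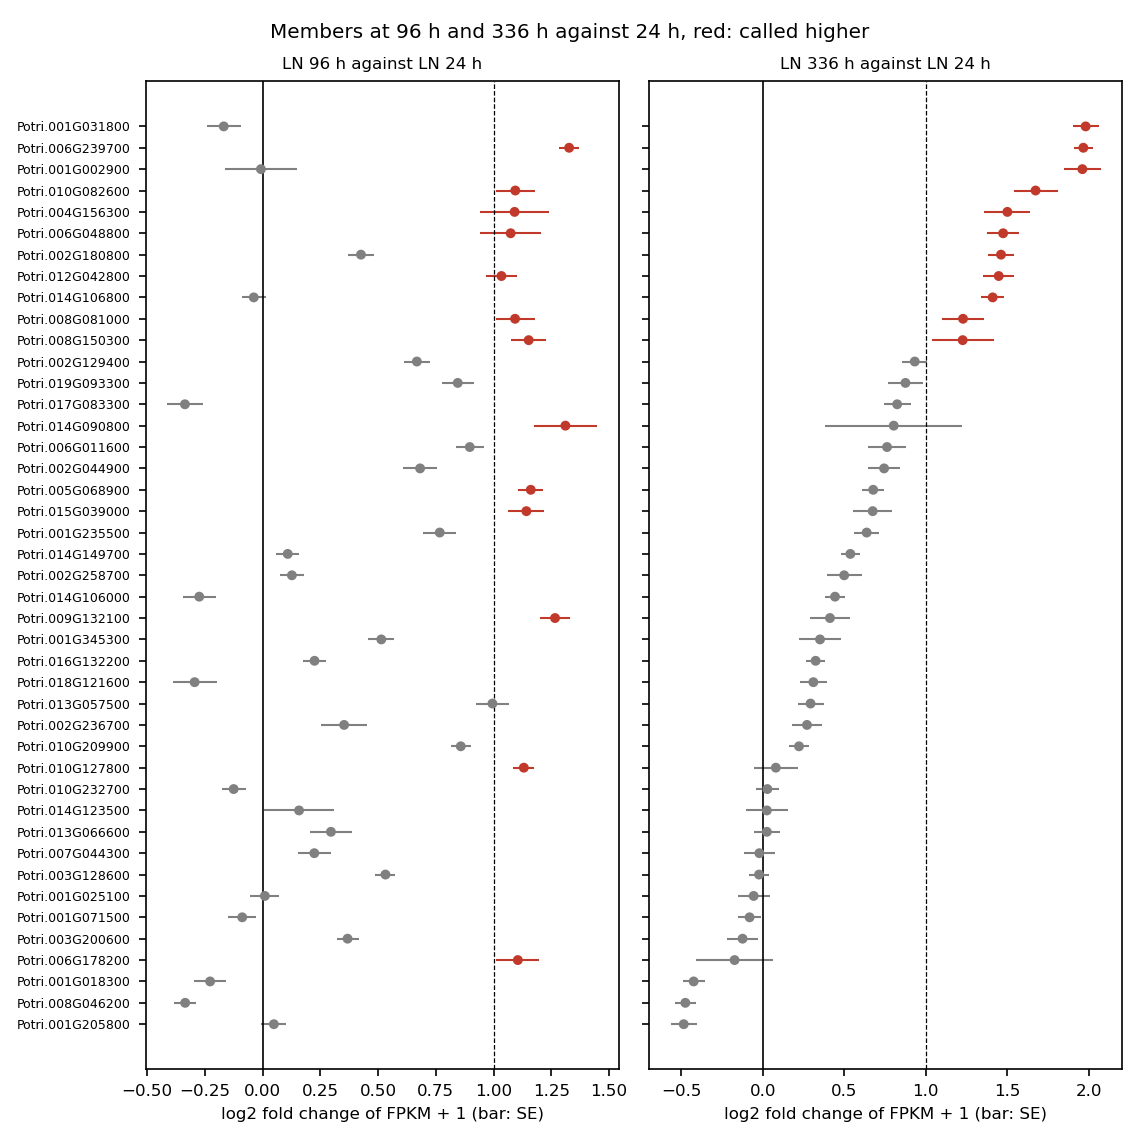
Log2 fold changes (x axis, on the FPKM + 1 scale) of the 43 members at 96 h and at 336 h against 24 h, with bars for the standard error, ordered by the value at 336 h. Red points were called higher, 13 at 96 h and 11 at 336 h, and the dashed line marks the limit of 1.

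No member of the 42 tested was called at 48 h against 24 h by limma, where 0.0694% of 23052 genes were called higher and 0.369% lower. At an unadjusted p under 0.05 there were 7 members (16.7%) and 21.1% of all genes tested, and limma-voom on the recovered fragments called none. This count rests on replicate 3 of 48 h: without it 7 members were called higher and 1334 of 22755 genes (5.86%), among the members both LHY copies, at 1.18 and 1.34. The 2 libraries left were assumed to vary like those of 24 h.

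Replicate 3 of 48 h was below both other replicates in 33 of the 43 members and above both in 10. Of the 39 members with at least 1 FPKM in all 3 libraries it was below both in 30 (76.9%), and of 21720 such genes in 33.1%. The rule bounded the mean of these same 3 libraries from below, which limits how the replicates of a member can differ. The values of this paragraph are therefore a description. The median of replicate 3 minus the mean of the others was -0.58 over members and 0.14 over all these genes, on the log2(FPKM + 1) scale. In 14 of the 43 members the difference was -1 or less, down to -3.06 for LHY Potri.014G106800 and -2.96 for the other copy. Of the 39 members with at least 1 FPKM in all 3 libraries, 11 were this low, beside 6.46% of the 21720 genes. In 5 of the 43 the difference was 0.5 or more. In no other library of the series were more than 26 members below both of their partners. The other genes with a d of -1 or less at 12 h were below both in 45.4% of 500, with a median of 0.03, and the genes raised at 12 h only were above both in 55 of 62. Set against the control mean, this library alone was lower by 1 or more in 8 members and by 0.5 or more in 17. The shares of all genes against the control mean were not computed. The labels give nothing by which this library differs from the other 2 of its group.

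**Figure D5:**
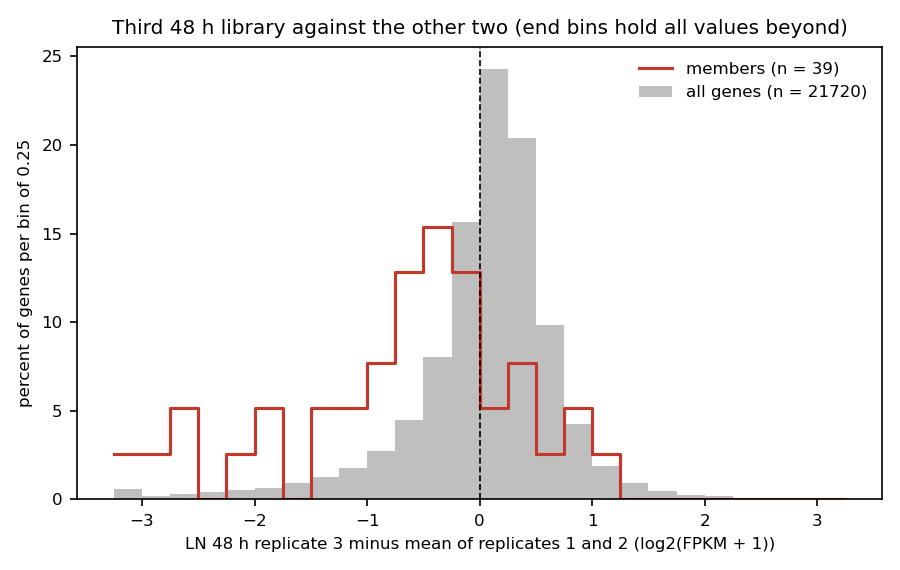
Distribution of replicate 3 minus the mean of replicates 1 and 2 at 48 h, in log2(FPKM + 1), as a percentage of genes in bins of 0.25. Grey bars are the 21720 genes with at least 1 FPKM in all 3 libraries and the red line the 39 such members. The members lie to the left, with a median of -0.58 over all 43 against 0.14 over all genes. The rule that chose them used the mean of these libraries.

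The members are spread over 18 of the chromosomes by their identifiers, with 8 on chromosome 1 and 5 each on chromosomes 2 and 14. Only 1 pair had closely neighbouring identifiers, LHY Potri.014G106800 and Potri.014G106000. Their transcript lengths, as recovered from the values, ran from 545 to 12724 bp with a median of 1517 bp, beside 1707 bp over all genes. Between the 12 h libraries the members' FPKM had a median coefficient of variation of 8.14%, and the highest, 73.3%, belonged to a gene with 23 fragments there. Over the 3 libraries of 12 h a member had 12 to 39449 fragments, with a median of 365, so that the lowest members carry the widest counting error.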

How the data were processed

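Per the labels and the methods of the study, paired-end RNA-seq reads of roots were mapped to the P. trichocarpa genome. The methods name Bowtie2 and TopHat2, and the submitters' processing notes Bowtie2 2.2.3 and HISAT2 2.1.0. The sources used here do not name the tool that counted fragments. For each of 18 libraries the authors deposited FPKM values of 30485 genes. All values correspond to whole fragments within 0.001 for 1 gene length and 1 library total, so lengths, totals and fragments were recovered.

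The rule was applied to log2(FPKM + 1). The limma tests (limma 3.58.1, R 4.3.3) used the 6 libraries of each comparison, genes at 1 FPKM or more in 3 or more of them and Benjamini-Hochberg adjustment over all genes tested. A gene was called at an adjusted p under 0.05 and a log2 fold change of 1 or more in size. On this scale the changes of low genes are understated. The steps were tested on simulated data. Tables and figures were made with Python 3.11.15, numpy 2.4.6, pandas 2.3.3 and matplotlib 3.10.9.

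Members named are those with a description, the 12 with the lowest d at 12 h and a control mean of at least 5 FPKM, the 3 largest rises and falls called against 24 h, and 3 genes on each side of each limit. The members and the lists were chosen with earlier results of these data known. Replicate numbers did not pair the samples. Alternatives were a pseudocount of 0.1, no filter, a trend of the variance, quantile normalization, 1 fit over all 18 libraries, a replicate block, each library left out, an adjusted p under 0.01 and, chosen after the data were seen, limma-voom on recovered fragments. For the rule they were also the median of the log values, a filter and later limits of -0.25 and -0.75. Intervals were not computed, and no sequence was used.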

Additional observations from a re-analysis of the deposited data

Results flagged for a closer look

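In 11 members every 336 h library was above every control library and was called higher by limma, while every 12 h library was below every control library. Of all genes tested, 8.28% were called higher at 336 h and 22.7% had every 12 h library below every control library. The share of all genes with both was not computed. The direction at 12 h was fixed by the rule, which allowed rises at 336 h and barred falls. The difference between both times was not tested, and the 2 comparisons share the control libraries. The d at 336 h was 1.46 and 1.72 for the LHY copies Potri.014G106800 and Potri.002G180800 and 1.78 for peroxidase 3, Potri.012G042800. It was 2.45 for Potri.014G149700, 2.41 for Potri.001G031800, 2.00 for Potri.001G002900 and 1.76 for Potri.006G239700. In the other 4, Potri.010G082600 (1.28), Potri.004G156300 (1.27), Potri.006G048800 (1.12) and Potri.008G150300 (1.11), the control means were under 2 FPKM. Some of these genes are named here only for this pattern, after their values were seen.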

How the results depend on the processing

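The rule took 43 genes as reported, 134 with a pseudocount of 0.1, 21 at a later limit of -0.25 and 73 at -0.75. Leaving out single libraries or 1 replicate number gave 39 to 47 genes, and quantile normalization 60, of which 31 were members. Not all were the same genes: 33, 34 and 36 of the members stayed without replicates 1, 2 and 3. With 1 control library left out, 37 to 39 stayed. At 12 h the members called lower numbered 30 to 42 with each library left out, and 42 or 43 otherwise. With 48 h set against 24 h, 0 members were called higher as reported, 1 with all 18 libraries in 1 fit, and 0 to 7 with each library left out, the 7 without replicate 3 of 48 h. Members called higher than at 24 h numbered 10 to 14 at 96 h and 9 to 11 at 336 h with each library left out. Under no alternative was a member called lower than at 24 h. Under every alternative 7 of the 13 genes stayed called at 96 h and 10 of the 11 at 336 h, and no gene changed sign. Of 330 single values, 12 dropped under a limit, 5 of them with quantile normalization.

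The replicate block changed no call: it gave 43 members lower at 12 h and, against 24 h, 0, 13 and 11 members higher at 48, 96 and 336 h. Deviations of same-numbered libraries correlated at -0.128 to 0.05. The lowest members have few fragments, 12 over the libraries of 12 h for Potri.014G090800, and small differences there were not detectable at this depth.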

Other observations

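A pair of undescribed members stood out and are named after their values were seen. Potri.014G149700 had the highest d of all members at 24 h, with 5.87, 5.66 and 6.89 FPKM in the control, 1.98, 2.41 and 2.36 FPKM at 12 h and 26.2, 25.4 and 26.1 FPKM at 24 h. It stayed at 27.3, 29.21 and 27.5 FPKM at 96 h and 36.8, 39.7 and 37.7 FPKM at 336 h, so it was under its control level at 12 h only and above it at all later times. Potri.010G127800 had its highest mean at 48 h, with 255, 269 and 117 FPKM, compared with 65.7, 60.01 and 62.0 FPKM in the control and 25.5, 25.4 and 27.5 FPKM at 12 h.

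The most abundant member was Potri.003G128600, just inside the rule, with 1135, 1113 and 1124 FPKM in the control and 531, 586 and 562 FPKM at 12 h. Of 67 genes whose identifiers are next to those of members, 3 had a d of -1 or less at 12 h, and their median was 0.04.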
